A study of Mus musculus with 12 samples.

Results

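Nuclear receptors are transcription factors that bind DNA and are, for many of them, switched by small lipophilic ligands, and their coregulators carry the enzymes and bridging proteins that turn binding into activation or repression. The gene set described here holds 34 such genes, 28 receptors and 6 coregulators, taken from a list of gene names. All 34 were found among the 11791 genes of a mouse liver RNA-seq table with 12 pools in 3 groups of 4. All animals were males of strain label C57BL/6, aged 10 weeks, that ate the MCD diet (deficient in methionine and choline, and used to produce steatohepatitis) over 3 weeks, and each pool mixed the RNA of 2 animals. Every group carried Lyzs-Cre, a Cre recombinase driven from the lysozyme 2 locus in myeloid cells, so no group is free of Cre or on an ordinary diet. The control group had no further change. The KO group also lacked p38γ and p38δ, stress-activated kinases, in Cre-expressing cells. The anti-Ly6G group had the control genotype and was given an antibody to the neutrophil surface protein Ly6G, although the sample titles read GR1. The labels also give the origin of the mitochondria, in the setting of conplastic mice, whose nuclear and mitochondrial DNA come from different strains. That label read C57 for every control pool and for 2 of the KO pools (1 and 2). It read NZB for the remaining KO pools (3 and 4) and for every anti-Ly6G pool, so antibody treatment and mitochondria label cannot be told apart in the comparison with control.

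In hepatocytes, receptors of the LXR, FXR, CAR, PXR and PPAR types sense oxysterols, bile acids, foreign compounds and fatty acids, and most of them bind DNA as a pair with a retinoid X receptor (RXR). Hnf4a, a receptor that acts without a classical switching ligand, maintains hepatocyte identity. Coactivators of the p160 and PGC-1 families raise the output of many receptors at once, and the corepressor Ncor1 holds unliganded receptors silent. The shared core recognition sequence of many of these receptors is the hexamer AGGTCA.

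Promoters are shown for the receptors with the largest levels among those that passed a test, because these receptors share partners and the results below turn on them. Each run is the 250 bases upstream of a RefSeq transcription start in GRCm38.p6, 5′ to 3′ on the gene's strand, with matches to AGGTCA (or TGACCT on the other strand) or to the E-box CACGTG in capitals. The Nr1h3 window lies at chr2:91195117-91195366 on the minus strand, the Nr1i3 window at chr1:171213720-171213969 on the plus strand, the Nr1h4 window at chr10:89506659-89506908 on the minus strand and the Rxra window, from the downstream one of its RefSeq starts, at chr2:27709042-27709291 on the plus strand.
Nr1h3: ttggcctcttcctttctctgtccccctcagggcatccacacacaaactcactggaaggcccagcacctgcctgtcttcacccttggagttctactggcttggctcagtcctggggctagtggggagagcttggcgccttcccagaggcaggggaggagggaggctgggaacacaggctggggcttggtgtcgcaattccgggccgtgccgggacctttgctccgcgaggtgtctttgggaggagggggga
Nr1i3: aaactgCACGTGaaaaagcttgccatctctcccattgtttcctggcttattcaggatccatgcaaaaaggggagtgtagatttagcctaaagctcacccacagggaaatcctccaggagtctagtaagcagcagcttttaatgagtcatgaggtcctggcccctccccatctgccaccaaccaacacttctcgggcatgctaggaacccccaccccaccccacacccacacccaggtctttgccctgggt
Nr1h4: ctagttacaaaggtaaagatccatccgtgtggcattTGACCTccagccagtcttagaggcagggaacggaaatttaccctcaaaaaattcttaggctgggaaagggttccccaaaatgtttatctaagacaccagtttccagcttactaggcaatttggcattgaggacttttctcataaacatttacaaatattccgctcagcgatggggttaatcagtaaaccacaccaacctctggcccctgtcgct
Rxra: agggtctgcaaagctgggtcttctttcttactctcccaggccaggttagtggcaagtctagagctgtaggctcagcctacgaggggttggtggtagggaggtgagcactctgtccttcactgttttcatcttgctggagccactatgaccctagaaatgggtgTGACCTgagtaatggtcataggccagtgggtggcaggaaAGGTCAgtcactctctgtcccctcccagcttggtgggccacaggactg
RefSeq promoters were matched for 29 of the 34 genes, and Ppargc1b, Ncoa2, Thra, Ncoa3 and Nr3c1 were not matched. AGGTCA, searched on both strands, occurred in 7 of 43 promoters of the set (16.3%), belonging to 6 genes (Nr1h4, Nr5a2, Pparg, Rxra, Rxrg and Thrb), against 14.02% of all 32851 promoters of that length. The palindrome CACGTG, the E-box read by clock factors, occurred in 4 of the 43 (9.30%), those of Nr0b2, Nr1i3, Rara and Thrb, against 6.02% of all promoters. The Nr1h3 window held neither. The window at the upstream RefSeq start of Rxra (chr2:27676951-27677200), not printed here, also held neither. These are matches of letters and not measured binding sites.

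Recovered reads per library ranged over 14.4 to 19.9 M (control), 18.8 to 22.3 M (KO) and 13.1 to 21.0 M (anti-Ly6G). Values are the deposited normalized signal, which behaves as reads divided by a TMM-scaled library size and is written RPM below. The lowest value of any gene of the set in any pool was 1.94, while 3 reads correspond to 0.125 to 0.242, so all 34 genes lay above the counting floor in every pool. The targeted gene Mapk12, which encodes p38γ, measured 2.08, 1.75, 2.14 and 2.71 in control pools 1 to 4, 1.63, 1.79, 2.70 and 3.06 in KO and 1.71, 1.57, 1.86 and 1.54 in anti-Ly6G pools. The KO and control pools overlapped, so in whole liver this level does not check the KO label; Mapk13 and Ly6g were not analysed here. The defining hepatocyte markers were abundant in every pool, with 6 of 6 markers summing to between 95942 and 143841 RPM.

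Levels per kilobase of annotated exon set Hnf4a first in control at 93.9 ± 19.1 RPM per kb (mean ± SD over 4 pools here and below), followed by Rxra at 70.9 ± 3.47, Nr1i3 at 69.2 ± 2.81 and Nr1h4 at 51.5 ± 7.14 RPM per kb. The control pools of Hnf4a, Rxra and Nr1i3 overlapped with their neighbour in this order, and with the longest transcript as the length Nr1i3 stood above Rxra. Nr1i3 and Nr1h4 did not overlap, and Nr1h4 lay above Nr1h3 in every control pool (27.6 ± 0.992). Ppara followed at 26.2 ± 2.88 and Nr1i2 at 24.3 ± 3.86 RPM per kb. Rarb was lowest at 0.780 ± 0.0823, below Ppard at 0.847 ± 0.126 and Esr1 at 0.984 ± 0.0922, with overlapping control pools. Along the whole order, the other neighbouring genes whose control pools did not overlap were Nr2f6 over Nr1h2, Ncor1 over Rxrb and Nr2c2 over Esr1. Without length scaling, 23 of the 34 genes lay above the median signal of all genes, 16.6 RPM.

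**Figure D1:**
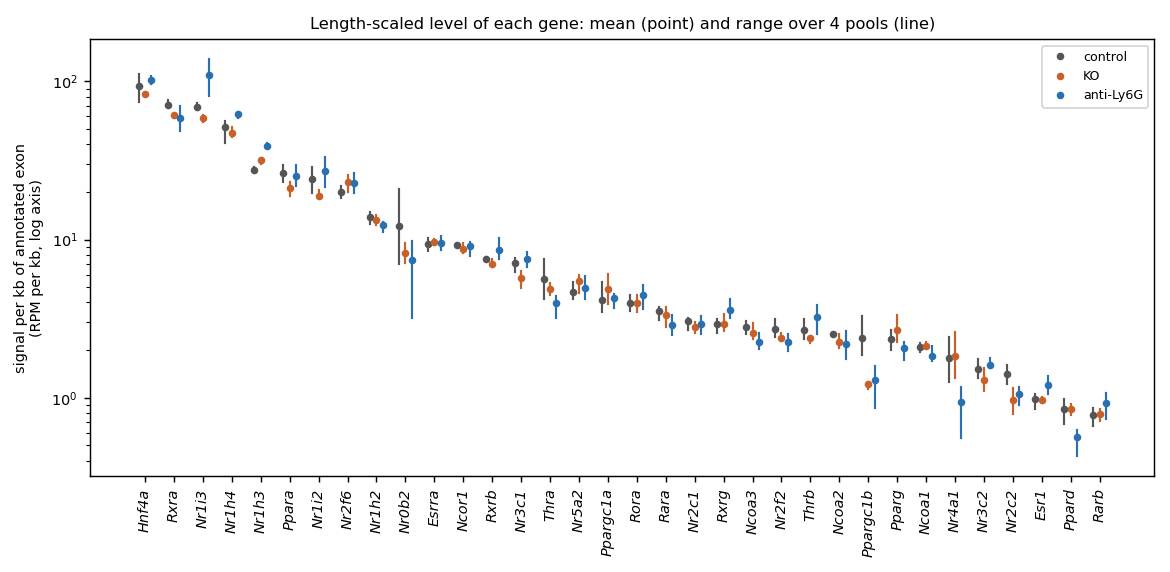
Level per kilobase of annotated exon (RPM per kb, log axis) of each of the 34 genes, ordered by the control mean, with points for group means and lines for the range over 4 pools. Hnf4a, Rxra, Nr1i3 and Nr1h4 lead in control, Nr1i3 and Nr1h3 stand higher in the anti-Ly6G pools, and Ppargc1b stands lower in both other groups.

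Sequence sharing limits a few of these levels. For 30 of the 34 genes at least 90% of annotated 25-mers occur in no other annotated gene, and the exceptions were Nr1i3 (30.3%), Nr2f6 (51.1%), Rarb (63.7%) and Nr2c2 (68.4%). These overlap Tomm40l, Ocel1, Top2b and Mrps25 respectively, and since the sources used here do not state whether strand was counted, their levels are uncertain to the extent that reads were shared. Thra is 94.6% unique but overlaps the antisense gene Nr1d1 at its 3′ end.

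The tests compared KO with control, anti-Ly6G with control, and KO with anti-Ly6G, and the comparisons with control share the control pools. Fold changes are log2 differences ± SE on the log2(signal + 0.5) scale, adjusted p-values are from limma with Benjamini-Hochberg adjustment over 11791 genes, and the threshold was 0.05. If the pools hold separate animals, the p-values measure the spread between pools of 2 animals. In whole liver, fewer cells of a type and less RNA per cell cannot be told apart. Where pools are named for a lost call, losses under other settings are not always listed.

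Ppargc1b was lower in KO than in control, and it was the only gene of the set to pass, 1 of 34 (2.94%) against 1.12% of all genes. None passed in the higher direction by limma or by edgeR, while DESeq2 called 1 higher (Nr1h3) and 2 lower (Ppargc1b and Nr2c2). At an unadjusted p of 0.05, 1 gene was higher and 6 were lower, 20.6% of the set against 18.9% of all genes. The pools of the groups did not overlap for 1 gene higher in KO and 4 lower, against 5.73% and 6.62% of all genes. In anti-Ly6G against control, 4 genes rose (Nr1h3, Nr1i3, Nr1h4 and Esr1) and 8 fell (Ppargc1b, Nr4a1, Ppard, Thra, Nr2c2, Ncoa3, Rxra and Nr2f2). These 12 make up 35.3% of the set against 30.4% of all genes, and the pools did not overlap for 5 genes higher and 4 lower, against 14.2% and 13.1% of all genes. At an unadjusted p of 0.05, 16 genes differed (47.1%), against 42.3% of all genes. In KO against anti-Ly6G, 2 were higher in KO (Nr4a1 and Ppard) and 8 lower (Nr1i3, Nr1i2, Thrb, Nr3c1, Nr1h4, Esr1, Nr1h3 and Rxrb), 29.4% against 26.8% of all genes, with non-overlapping pools for 3 genes higher and 10 lower in KO, against 13.8% and 13.5% of all genes, and 16 genes (47.1%) at an unadjusted p of 0.05, against 39.6%. When the columns were scaled to equal totals, which moved the median of all genes by 0.11 in this last comparison, the split became 4 higher and 2 lower. The median log2 fold changes of the set were -0.11, -0.00 and -0.05 in the 3 comparisons, beside -0.00, -0.00 and -0.01 over all genes. Over the 3 comparisons 16 of the 34 genes passed at least once and 18 never did.

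**Figure D2:**
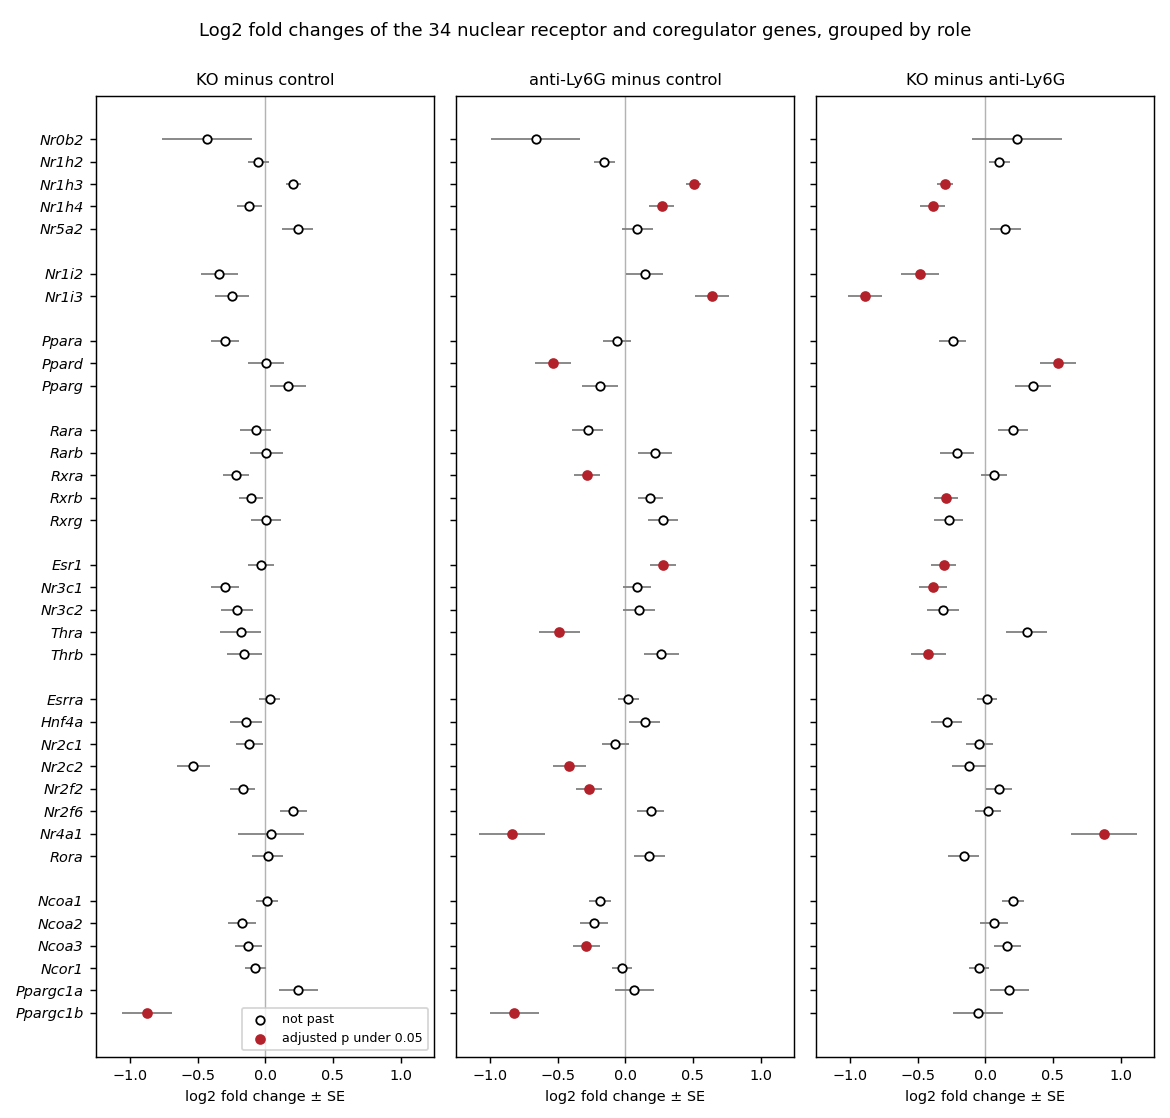
Log2 fold change ± SE of the 34 genes in the 3 comparisons, grouped by role, with filled points where the limma adjusted p was under 0.05. In KO against control 1 point is filled, Ppargc1b at -0.88; in anti-Ly6G against control the filled points range from Nr4a1 at -0.84 to Nr1i3 at 0.64.

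Among the sterol and bile acid receptors, Nr1h3 and Nr1h4 rose in anti-Ly6G against control. Nr1h3 encodes LXRα, the oxysterol receptor that controls cholesterol export and lipogenesis. Nr1h3 measured 66.8, 68.1, 72.5 and 70.1 in control pools 1 to 4, 81.1, 75.5, 81.6 and 82.2 in the KO pools and 102, 95.4, 98.6 and 98.4 RPM in the anti-Ly6G pools. Every anti-Ly6G pool lay above every KO pool, and every KO pool above every control pool. The increase in anti-Ly6G over control was 0.50 ± 0.06 (limma adjusted p = 5.89e-05) and stayed past the threshold in all 17 alternatives run. KO minus anti-Ly6G was -0.30 ± 0.06 (adjusted p = 0.00205), which was lost only with equal totals (adjusted p = 0.0685). The difference of KO from control, 0.21 ± 0.06, did not pass (adjusted p = 0.0842). Within the KO group the pools with the C57 label were 81.1 and 75.5 and those with the NZB label 81.6 and 82.2.

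Nr1h4 encodes FXR, the bile acid receptor. Nr1h4 measured 94.1, 125, 129 and 127 in control pools 1 to 4, 109, 118, 103 and 104 in the KO pools and 136, 144, 141 and 148 RPM in the anti-Ly6G pools. All anti-Ly6G pools exceeded all pools of the other groups, and control pool 1 lay apart below the other control pools. The increase over control was 0.27 ± 0.09 (adjusted p = 0.0412). It did not pass in 10 of 17 alternatives, among them those without control pool 1 or 2 or any 1 of the anti-Ly6G pools (largest adjusted p = 0.0889). The others were edgeR, equal totals, the compared groups only and the mitochondria label as a covariate (up to 0.133). KO minus anti-Ly6G was -0.39 ± 0.09 (adjusted p = 0.00808), a call lost with equal totals (adjusted p = 0.0531). Nr1h2, encoding LXRβ, the more widely expressed LXR, did not pass in any comparison at 46.4, 44.7 and 41.6 RPM in control, KO and anti-Ly6G. Nr0b2, the repressor SHP that FXR induces, measured 13.7 ± 6.94, 9.28 ± 1.26 and 8.43 ± 3.49 RPM and also did not pass, with control pools spread from 7.94 to 23.5 RPM. Nr5a2 (LRH-1), an activator of bile acid synthesis genes, measured 27.4, 32.4 and 29.2 RPM and did not pass.

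Of 9 listed LXR target genes, all measured, 6 fell in anti-Ly6G against control and 3 did not pass, with a median log2 fold change of -0.32. In this comparison 15.1% of all genes rose and 15.3% fell, the shares to set beside this and each list below. Scd1, the stearoyl-CoA desaturase, measured 302, 915, 301 and 926 RPM in the control pools, 329, 362, 258 and 330.3 in KO and 63.9, 37.9, 104 and 27.9 in anti-Ly6G. All anti-Ly6G pools lay below all others, a change of -3.34 ± 0.42 (adjusted p = 0.000129). Srebf1, the lipogenic transcription factor SREBP-1, fell by 1.03 on the log2 scale (adjusted p = 0.0109), Pltp, a phospholipid transfer protein, fell by 0.48 (adjusted p = 0.00764) and Abcg1, a cholesterol exporter, fell by 0.55 (adjusted p = 0.0173; 0.0544 without anti-Ly6G pool 2). The receptor Nr1h3 and these targets passed in opposite directions in the same pools. With the mitochondria label as a covariate, the calls of Srebf1 and Abcg1 were lost (adjusted p = 0.27 and 0.0942). The rest of the list was named after its values were seen. Abca1 and Lpcat3 also fell, and their calls were lost in 9 and 8 of 17 alternatives. Abcg8 (0.37, adjusted p = 0.146), Abcg5 (-0.14) and Mylip (-0.10) did not pass. Between KO and anti-Ly6G, 3 of the 9 were higher in KO (Scd1, Pltp and Abcg1) and 1 lower (Abcg8). Of all genes, 13.6% were higher and 13.1% lower in KO there, shares that apply to the later lists too.
Of 6 measured FXR targets of 8 listed, Fgfr4, the receptor for the intestinal signal of bile acid load, rose in anti-Ly6G (0.31, adjusted p = 0.0347). That call was lost without control pool 1, 2 or 3 or anti-Ly6G pool 3 or 4 (largest adjusted p = 0.0846). It was also lost with equal totals, with only the compared groups fitted and with the label as a covariate (up to 0.32). The bile acid uptake transporter Slc10a1 fell in both comparisons with control. It measured 476 ± 29.4 RPM in control, 339.9 ± 34.8 in KO and 368 ± 42.0 in the anti-Ly6G group, with adjusted p-values of 0.0323 and 0.009. The KO call was lost without control pool 1, 2 or 3 or KO pool 1, 3 or 4 (largest adjusted p = 0.105). It was also lost with the replicate block and with pools matched on or adjusted for the mitochondria label (up to 0.16). The anti-Ly6G call of Slc10a1 was lost only with the label as a covariate (adjusted p = 0.597). The other 4 did not pass against control, and the median of the 6 was 0.16 in anti-Ly6G. Named after their values were seen, Abcb11 (0.20), Abcb4 (0.13) and Cyp7a1 (0.67) stood above 0 there and Cyp8b1 (-0.38) below. The list was not sorted by whether FXR raises or lowers a gene. Its counts and median therefore do not measure FXR activity.

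Among the xenobiotic receptors, Nr1i3, which encodes CAR, the receptor that responds to phenobarbital-like compounds, was lower in KO than in anti-Ly6G. Nr1i3 measured 307, 320.0, 289.9 and 304 in control pools 1 to 4, 272, 245, 248 and 266 in the KO pools and 456, 527, 354 and 608 RPM in the anti-Ly6G pools. Every anti-Ly6G pool exceeded every control pool and every control pool exceeded every KO pool, with pool 3 the lowest of the anti-Ly6G group. Anti-Ly6G stood above control by 0.64 ± 0.13 (adjusted p = 0.00229), a call lost only with the mitochondria label as a covariate (adjusted p = 0.0889). KO minus anti-Ly6G was -0.89 ± 0.13 (adjusted p = 0.000341), which held in all 18 alternatives, and the difference of KO from control (-0.25 ± 0.13) did not pass (adjusted p = 0.31). Tomm40l, the overlapping gene, measured 14.4 ± 0.854, 11.6 ± 1.11 and 16.1 ± 2.90 RPM in control, KO and anti-Ly6G, also below anti-Ly6G in KO (-0.45, adjusted p = 0.0118).

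Nr1i2, which encodes PXR, the broad drug and steroid sensor, did not pass against control. Nr1i2 measured 50.3, 59.1, 64.6 and 73.8 in control pools 1 to 4, 47.9, 46.3, 52.6 and 46.9 in the KO pools and 58.9, 77.0, 54.9 and 84.7 RPM in the anti-Ly6G pools. All KO pools lay below all anti-Ly6G pools, a difference of -0.48 ± 0.14 (adjusted p = 0.0194). It was not past the threshold without anti-Ly6G pool 2 (adjusted p = 0.0602), with equal totals, or when the mitochondria label was matched or fitted.

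Of 14 measured CAR and PXR targets of 15 listed, 2 rose in anti-Ly6G against control, 5 fell and 7 did not pass, with a median of -0.30. Cyp2b10, the cytochrome P450 most closely tied to CAR, measured 0.819, 0.501, 0.9503 and 1.32 RPM in the control pools, 0.868, 0.686, 1.17 and 1.82 in KO and 19.8, 14.3, 6.34 and 14.4 in anti-Ly6G. The anti-Ly6G pools were all above the others, by 3.27 ± 0.31 over control (adjusted p = 1.16e-05). Pool 3 was the lowest of its group for Cyp2b10 and for Nr1i3, while the highest was pool 1 for Cyp2b10 and pool 4 for Nr1i3. The other riser, Abcb1a, a drug exporter named after its values were seen, changed by 0.55 (adjusted p = 0.0125). Of the fallers, the exporter Abcc3 fell by 0.83 (adjusted p = 0.000161), the glutathione transferase Gstm1 fell by 0.89 (adjusted p = 0.000277) and the bilirubin-conjugating enzyme Ugt1a1 fell by 0.51 (adjusted p = 0.00225). Between KO and anti-Ly6G, 4 of the 14 were higher in KO and 3 lower, with Cyp2b10 at -3.06 (adjusted p = 2.71e-05).

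**Figure D3:**
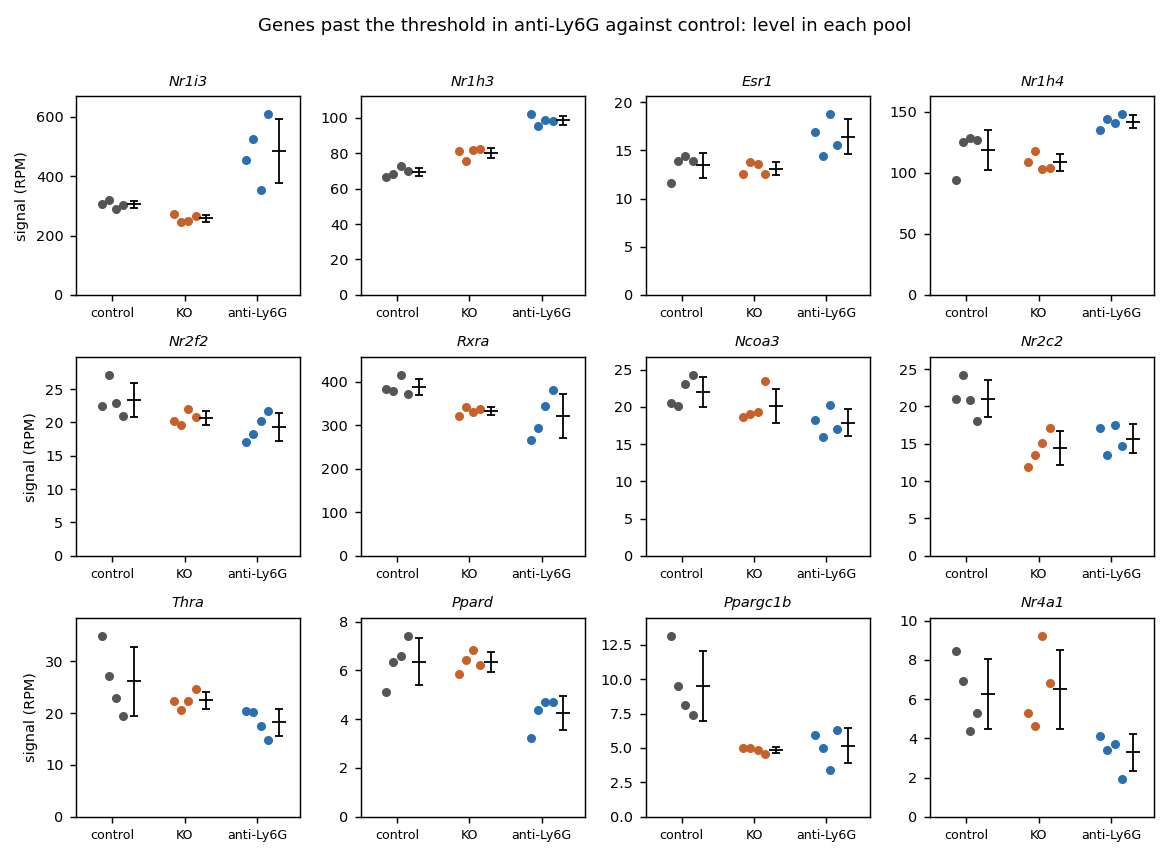
Signal (RPM) in each pool, with mean and SD beside the points, for the 12 genes past the threshold in anti-Ly6G against control. The 4 anti-Ly6G pools lie above all control pools for Nr1h3, Nr1i3, Nr1h4 and, narrowly, Esr1, and below them for Ppargc1b, Ppard, Nr4a1 and Nr2c2, while the pools overlap for Thra, Rxra, Ncoa3 and Nr2f2.

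Of the PPAR family, which senses fatty acids, Ppard was the only gene to pass. It encodes PPARδ, a receptor found in most tissues. Ppard measured 5.11, 6.36, 6.59 and 7.40 in control pools 1 to 4, 5.87, 6.44, 6.82 and 6.22 in the KO pools and 3.22, 4.36, 4.72 and 4.69 RPM in the anti-Ly6G pools. Every anti-Ly6G pool lay below every pool of the other groups. The decrease against control was -0.53 ± 0.13 (adjusted p = 0.00909), lost only with the mitochondria label as a covariate (adjusted p = 0.127), and KO stood 0.54 ± 0.13 above anti-Ly6G (adjusted p = 0.00986), which held in all 18 alternatives. Ppara, the fasting and fatty acid oxidation receptor, measured 101 ± 11.03, 81.5 ± 7.72 and 96.7 ± 12.04 RPM in control, KO and anti-Ly6G and did not pass (-0.30 in KO, adjusted p = 0.147). Pparg, the adipogenic receptor, measured 6.99 ± 0.809, 7.95 ± 1.37 and 6.08 ± 0.763 RPM and did not pass.

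Of 21 PPARA targets, all measured, 4 rose in anti-Ly6G against control and 1 fell, where 15.1% and 15.3% of all genes did. The other 16 did not pass, and the median of the 21 was 0.04. The risers were Vnn1, a pantetheinase (0.54, adjusted p = 0.000655), the secreted hormone Fgf21 (1.05, adjusted p = 0.00257), the fatty acid carrier Fabp1 (0.61, adjusted p = 0.00392) and the droplet coat protein Plin2 (0.47, adjusted p = 0.00462). With the mitochondria label as a covariate, Vnn1 was kept and Fgf21, Plin2 and Fabp1 were lost (adjusted p = 0.657, 0.398 and 0.146). Fgf21 measured 25.03 and 23.3 RPM in the KO pools with the C57 label and 50.8 and 39.5 in those with the NZB label. Its control pools ranged from 15.9 to 22.2 RPM and its anti-Ly6G pools from 34.7 to 46.6. The faller, Cpt1a, the entry enzyme of mitochondrial fatty acid oxidation and named after its values were seen, was at -0.30 (adjusted p = 0.0316). It was not past the threshold without control pool 1, 3 or 4 or anti-Ly6G pool 1, 2 or 4 (largest adjusted p = 0.0988). Of 5 measured PPARG targets of 8 listed, 2 fell and 3 did not pass, while the median of the 5 was 0.22. Lpl, lipoprotein lipase, measured 82.0, 122, 98.2 and 185 RPM in the control pools, 206, 199, 137 and 147 in KO and 50.01, 37.3, 37.5 and 29.3 in anti-Ly6G (-1.60 ± 0.23, adjusted p = 0.000266). The fatty acid carrier Fabp4 changed by -0.65 (adjusted p = 0.0181; 0.0515 without control pool 4). Lpl and Fabp4 are also made by macrophages, of whose 11 listed markers 5 fell in the same comparison as given below. A link between these falls was not tested.

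Of the retinoid receptors, Rxra fell in anti-Ly6G against control. Rxra, the main RXR of liver and the partner of most receptors above, measured 384, 379, 415 and 371 RPM in the control pools, 321, 341, 331 and 338 in KO and 266, 294, 344 and 380.4 in anti-Ly6G. All KO pools lay below all control pools, while anti-Ly6G pools ranged from below the KO group to within the control group. The decrease in anti-Ly6G passed at -0.28 ± 0.10 (adjusted p = 0.0382). It was lost without any 1 of the control pools or without anti-Ly6G pool 1 or 2 (largest adjusted p = 0.111). It was also lost with edgeR, with only the compared groups fitted and with the mitochondria label as a covariate (up to 0.276). The decrease in KO did not pass (-0.22 ± 0.10, adjusted p = 0.241). Rxrb did not pass against control. Rxrb measured 29.2, 30.3, 29.0 and 30.9 in control pools 1 to 4, 27.3, 27.1, 29.8 and 26.7 in the KO pools and 30.7, 29.9, 35.9 and 40.6 RPM in the anti-Ly6G pools. It was lower in KO than in anti-Ly6G at -0.29 ± 0.09 (adjusted p = 0.0292), kept in 9 of 18 alternatives. The call was lost without KO pool 1, 2 or 4 or anti-Ly6G pool 3 or 4 (largest adjusted p = 0.0701). Further losses came with equal totals, the compared groups only and pools matched on or adjusted for the label (up to 0.204). Rxrg, the RXR best known from muscle and brain, measured 6.68, 6.71 and 8.22 RPM in control, KO and anti-Ly6G. All its anti-Ly6G pools were above all control pools without passing (0.28, adjusted p = 0.0721). The retinoic acid receptors Rara (15.4, 14.6 and 12.6 RPM) and Rarb (4.11, 4.12 and 4.88 RPM) did not pass. Of 5 measured retinoic acid targets of 8 listed, with a median of -0.19, 1 fell in anti-Ly6G, against 15.3% of all genes. Cyp26a1, which degrades retinoic acid, measured 4.41, 5.91, 3.86 and 4.10 RPM in the control pools, 6.13, 5.59, 1.62 and 2.44 in KO and 1.39, 1.62, 0.620 and 2.26 in anti-Ly6G (-1.42 ± 0.35, adjusted p = 0.0083). In KO its values were higher in the pools with the C57 label, 1 and 2, than in those with the NZB label, 3 and 4, and the call was lost with that label as a covariate.

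Among the steroid and thyroid receptors, Nr3c1, the glucocorticoid receptor, separated KO from anti-Ly6G. Nr3c1 measured 58.5, 57.5, 54.1 and 47.6 in control pools 1 to 4, 48.9, 47.9, 38.03 and 42.0 in the KO pools and 62.8, 64.5, 53.2 and 51.3 RPM in the anti-Ly6G pools. The anti-Ly6G pools were all above the KO pools, and the difference of KO from anti-Ly6G, -0.39 ± 0.10 (adjusted p = 0.0141), held in all 18 alternatives. Neither group differed from control past the threshold (KO -0.30, adjusted p = 0.149). Of 12 glucocorticoid receptor targets, all measured, 4 fell in anti-Ly6G against control and 8 did not pass, with a median of -0.36. They were the phosphatase Dusp1 (-1.29 ± 0.15, adjusted p = 6.18e-05), the transcription factor Klf9 (-0.55, adjusted p = 0.00365), the kinase Sgk1 (-0.39, adjusted p = 0.0411) and the clock gene Per1 (-0.73, adjusted p = 0.0419). Sgk1 was lost without control pool 1, 3 or 4 or anti-Ly6G pool 1, 2 or 4 (largest adjusted p = 0.117). Per1 was lost without control pool 1 or 2 or anti-Ly6G pool 1, 2 or 3 (largest adjusted p = 0.12). Per1 was also lost with only the compared groups fitted, with the replicate block and with the label as a covariate (up to 0.607). Against anti-Ly6G, Sgk1 (0.69, adjusted p = 0.00232) and Dusp1 (0.90, adjusted p = 0.000795) were higher in KO.

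Nr3c2, the mineralocorticoid receptor, measured 9.79, 8.40 and 10.5 RPM and did not pass. Esr1, the oestrogen receptor ERα, rose narrowly in anti-Ly6G. Esr1 measured 11.6, 13.9, 14.4 and 13.9 in control pools 1 to 4, 12.6, 13.8, 13.6 and 12.6 in the KO pools and 16.9, 14.4, 18.7 and 15.6 RPM in the anti-Ly6G pools. The lowest anti-Ly6G pool, pool 2, was barely above the highest control pool. The increase was 0.28 ± 0.09 (adjusted p = 0.0398), lost without control pool 1, 2 or 4 or anti-Ly6G pool 1 or 3 (largest adjusted p = 0.113). It was also lost with equal totals, with only the compared groups fitted and with the label as a covariate (up to 0.296). KO minus anti-Ly6G was -0.31 ± 0.09 (adjusted p = 0.0283), lost without KO pool 1 or 4 or anti-Ly6G pool 1 or 3 (largest adjusted p = 0.0728). That call was also lost with equal totals and with pools matched on or adjusted for the label (up to 0.201).

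Of the thyroid hormone receptors, Thra fell in anti-Ly6G against control and Thrb was lower in KO than in anti-Ly6G. Thra measured 34.8, 27.2, 22.9 and 19.5 in control pools 1 to 4, 22.4, 20.6, 22.3 and 24.6 in the KO pools and 20.4, 20.1, 17.4 and 14.8 RPM in the anti-Ly6G pools. The control values ranged widely and overlapped with the anti-Ly6G pools. The decrease of Thra was -0.49 ± 0.15 (adjusted p = 0.0259), lost without control pool 1 or 2 or anti-Ly6G pool 3 or 4 (largest adjusted p = 0.0678). Thra was also lost with only the compared groups fitted and with the mitochondria label as a covariate (up to 0.166). Its antisense neighbour Nr1d1 measured 165 ± 43.9, 108 ± 10.7 and 76.6 ± 16.3 RPM in the 3 groups and fell by 1.08 in anti-Ly6G (adjusted p = 0.00069), and how far reads of the pair were shared was not tested. Thrb measured 20.7, 23.3, 17.6 and 17.4 in control pools 1 to 4, 16.4, 17.99, 18.3 and 17.6 in the KO pools and 28.4, 27.5, 21.6 and 18.7 RPM in the anti-Ly6G pools. For Thrb, the main thyroid hormone receptor of hepatocytes, the KO pools all lay below the anti-Ly6G pools at -0.42 ± 0.13 (adjusted p = 0.0282). This call was lost without KO pool 1 or 4 or anti-Ly6G pool 1 or 2 (largest adjusted p = 0.0851). It was also lost with equal totals and with pools matched on or adjusted for the mitochondria label (up to 0.127). Of 6 thyroid hormone targets, all measured, 3 rose in anti-Ly6G against control, 1 fell and 2 did not pass, with a median of 0.58. Malic enzyme Me1 was at 0.94 (adjusted p = 0.000169), the deiodinase Dio1 at 0.66 (adjusted p = 0.00828) and Bcl3, an IκB family protein, at 0.53 (adjusted p = 0.0227; up to 0.0642 without control pool 1, 2 or 3 or anti-Ly6G pool 3). The faller was G6pc, glucose-6-phosphatase, at -0.88 (adjusted p = 0.00433).

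**Figure D4:**
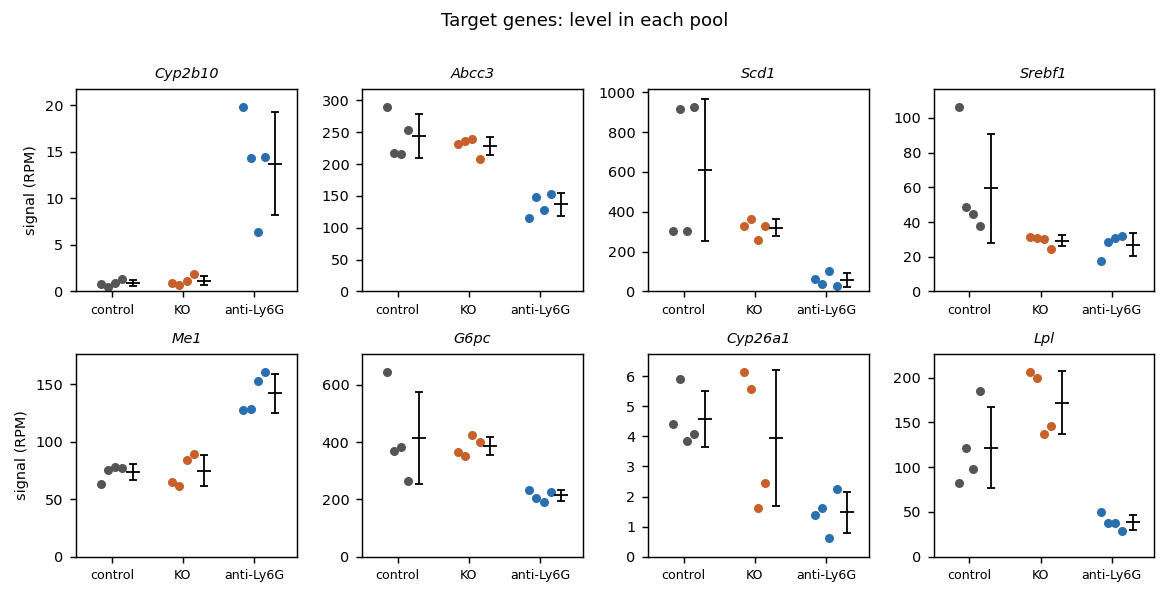
Signal (RPM) in each pool, with mean and SD beside the points, for 8 target genes of the receptors. Cyp2b10 and Me1 are higher and Abcc3, Scd1, Srebf1, G6pc, Cyp26a1 and Lpl are lower in the anti-Ly6G pools than in control, and Cyp26a1 in KO is split between pools 1 and 2 above and pools 3 and 4 below.

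Of the orphan and related receptors, Nr2c2, Nr4a1 and Nr2f2 fell in anti-Ly6G against control. Nr2c2 encodes TR4, a receptor that competes for AGGTCA repeats. Nr2c2 measured 20.9, 24.1, 20.9 and 18.1 in control pools 1 to 4, 11.8, 13.6, 15.1 and 17.1 in the KO pools and 17.1, 13.4, 17.5 and 14.7 RPM in the anti-Ly6G pools. Both other groups lay below all control pools. The decrease passed in anti-Ly6G (-0.41 ± 0.12, adjusted p = 0.022), except without control pool 2 or anti-Ly6G pool 2 (largest adjusted p = 0.0703). It missed the threshold in KO (-0.53 ± 0.12, adjusted p = 0.0563), where it passed with DESeq2, with the mitochondria label as a covariate, and without control pool 4 or KO pool 4. The overlapping gene Mrps25 measured 18.5, 19.9 and 20.5 RPM in control, KO and anti-Ly6G and did not pass. Nr2c1 (TR2), its relative, measured 14.1, 12.9 and 13.4 RPM and did not pass.

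Nr4a1 (Nur77), an immediate early receptor, had the largest fall of the set in anti-Ly6G against control. Nr4a1 measured 8.45, 6.91, 4.395 and 5.29 in control pools 1 to 4, 5.31, 4.64, 9.20 and 6.79 in the KO pools and 4.11, 3.40, 3.72 and 1.94 RPM in the anti-Ly6G pools. All anti-Ly6G pools were below all others, and pool 4 was lowest. It stood -0.84 ± 0.24 against control (adjusted p = 0.02), lost without control pool 1 or 2 or anti-Ly6G pool 4 (largest adjusted p = 0.0595), and KO was 0.88 ± 0.24 above anti-Ly6G (adjusted p = 0.0175; 0.057 without KO pool 3). Nr2f2 (COUP-TFII), a receptor of vascular and mesenchymal cells as well as hepatocytes, overlapped between groups. Nr2f2 measured 22.4, 27.1, 22.9 and 21.0 in control pools 1 to 4, 20.2, 19.6, 21.97 and 20.9 in the KO pools and 17.0, 18.2, 20.2 and 21.7 RPM in the anti-Ly6G pools. Its decrease in anti-Ly6G of -0.27 ± 0.09 (adjusted p = 0.0444) was lost without control pool 1, 2 or 3 or anti-Ly6G pool 1 or 2 (largest adjusted p = 0.139). It was also lost with only the compared groups fitted, with the replicate block and with the label as a covariate (up to 0.171). Nr2f6 measured 59.2, 68.6 and 67.7 RPM and did not pass.

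Hnf4a, the hepatocyte identity factor, varied more between control pools than Rxra, Nr1i3 or Nr1h4. Hnf4a measured 355, 396, 523 and 540.4 in control pools 1 to 4, 392, 409, 409 and 408 in the KO pools and 519, 477, 463 and 514 RPM in the anti-Ly6G pools. The KO pools were close to each other, lay within the control range and below all anti-Ly6G pools, and no comparison passed. Esrra, which drives mitochondrial genes with PGC-1, measured 41.2, 42.1 and 41.9 RPM in control, KO and anti-Ly6G, and Rora, a clock-linked receptor, measured 51.5, 52.2 and 58.7 RPM; neither passed. Of 11 HNF4A targets, all measured, 1 rose in anti-Ly6G (Apoc3, a lipoprotein constituent, 0.54, adjusted p = 0.00344), 2 fell and 8 did not pass, with a median of -0.05. Among the fallers was coagulation factor F7 (-0.56, adjusted p = 0.00506). Of all genes, 15.1% rose and 15.3% fell in this comparison.

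Of 20 further nuclear receptors listed beside the set, 7 were measured, 1 of which rose and 2 fell in anti-Ly6G against control, with a median of -0.09. The heme receptor and clock repressor Nr1d1 fell as given above, and its relative Nr1d2 passed in opposite directions in the comparisons with control. Nr1d2 measured 76.0, 77.6, 67.4 and 75.6 in control pools 1 to 4, 58.0, 51.6, 50.4 and 49.7 in the KO pools and 85.4, 97.6, 84.1 and 85.6 RPM in the anti-Ly6G pools. It stood at -0.50 ± 0.07 in KO (adjusted p = 0.0123) and at 0.25 ± 0.07 in anti-Ly6G (adjusted p = 0.0229). The KO call was lost without control pool 2 (0.0538) and with pools matched on the mitochondria label (0.0737). The anti-Ly6G call was lost without control pool 3 or anti-Ly6G pool 2 (up to 0.0721). It was also lost with equal totals and with the label as a covariate (up to 0.0801). KO and anti-Ly6G differed by -0.74 ± 0.07 (adjusted p = 2.71e-05). Rarg, the remaining retinoic acid receptor, changed by -0.41 in anti-Ly6G (adjusted p = 0.0165; 0.0506 without anti-Ly6G pool 2).

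The coregulator Ppargc1b was lower in both groups compared with control. It encodes PGC-1β, a coactivator of lipogenesis and of mitochondrial gene expression. Ppargc1b measured 13.1, 9.47, 8.14 and 7.40 in control pools 1 to 4, 5.01, 5.01, 4.83 and 4.54 in the KO pools and 5.94, 5.02, 3.43 and 6.30 RPM in the anti-Ly6G pools. Control pool 1 was the highest, and all pools of both other groups lay below the lowest control pool. The difference was -0.88 ± 0.18 in KO (adjusted p = 0.0415) and -0.82 ± 0.18 in the anti-Ly6G group (adjusted p = 0.0048), both against the same control pools, and KO and anti-Ly6G did not differ past the threshold (-0.06, adjusted p = 0.848). The KO call was lost in 10 of 18 alternatives: without control pool 1, 2 or 3 or any 1 KO pool (log2 fold change -0.98 to -0.72 over all 8 pools left out, largest adjusted p = 0.12), with pools matched on or adjusted for the mitochondria label (up to 0.159), and with the replicate block. The anti-Ly6G call was lost only with the label as a covariate (adjusted p = 0.173).

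Ncoa3, a p160 coactivator, fell slightly in anti-Ly6G. Ncoa3 measured 20.5, 20.1, 23.0 and 24.2 in control pools 1 to 4, 18.6, 19.0, 19.3 and 23.5 in the KO pools and 18.3, 16.02, 20.2 and 17.1 RPM in the anti-Ly6G pools. The groups overlapped. The difference of -0.29 ± 0.10 (adjusted p = 0.0406) was lost without control pool 3 or 4 or anti-Ly6G pool 1, 2 or 4 (largest adjusted p = 0.115). It was also lost with equal totals, with only the compared groups fitted and with the label as a covariate. The gene Sulf2 on the opposite strand fell by 0.74 (adjusted p = 0.000125). Sulf2 was also lower in KO than in control (-0.43, adjusted p = 0.0455) and higher in KO than in anti-Ly6G (0.32, adjusted p = 0.0235). The call of Sulf2 in KO against control was lost in 12 of 18 alternatives (adjusted p up to 0.198). It was kept in 1 of the 8 fits with a pool left out. The call between KO and anti-Ly6G was lost in 5 of 18 alternatives (up to 0.141). The other p160 genes Ncoa1 (17.98, 18.2 and 15.8 RPM) and Ncoa2 (39.7, 35.4 and 34.1 RPM), the corepressor Ncor1 (118, 112 and 116 RPM) and Ppargc1a, the PGC-1α coactivator of gluconeogenesis (27.1, 32.1 and 28.1 RPM in control, KO and anti-Ly6G), did not pass in any comparison.

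Of 24 measured coregulators of 25 listed beside the set, 6 fell in anti-Ly6G and 18 did not pass, with a median of -0.08. Cited2, a binding partner of the CBP and p300 acetyltransferases, fell by 0.87 (adjusted p = 0.000101), the corepressor Nrip1 fell by 0.52 (adjusted p = 0.00539), the acetyltransferase Crebbp fell by 0.49 (adjusted p = 0.0122) and the coactivator Ncoa6 fell by 0.40 on the log2 scale (adjusted p = 0.0169; up to 0.0514 without anti-Ly6G pool 1 or 2). None of the 24 rose past the threshold by limma, edgeR or DESeq2, with 1 higher at an unadjusted p of 0.05. Of 9 ERRA and PGC-1 targets, all measured, none passed against control by limma, edgeR or DESeq2 (medians -0.09 in KO and 0.10 in anti-Ly6G), with 1 higher and 0 lower in anti-Ly6G and 0 higher and 2 lower in KO at an unadjusted p of 0.05. Between KO and anti-Ly6G, Vegfa (-0.39, adjusted p = 0.00995) and the complex I subunit Ndufs1 (-0.25, adjusted p = 0.0169; 0.0536 without KO pool 2) were lower in KO.

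**Figure D5:**
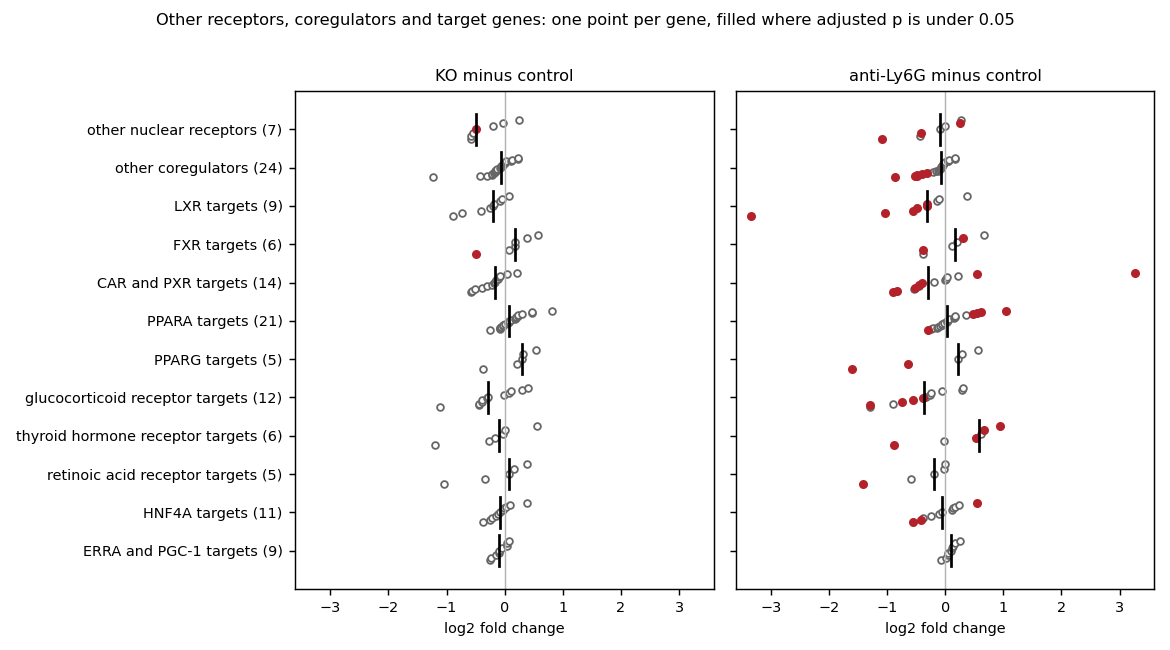
Log2 fold change of each gene (1 point per gene, filled where the limma adjusted p was under 0.05) in 12 lists of receptor targets and further pathway genes, with the list median as a black bar and the number of genes measured in brackets, for both comparisons with control. In KO against control 2 points are filled, both lower, and in anti-Ly6G against control the filled points of the LXR and glucocorticoid receptor target lists, 6 and 4, all lie below 0, while Cyp2b10 at 3.27 stands furthest to the right.

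Over the 12 lists together, 128 genes were measured, and in KO against control 2 of them passed (1.56%, against 1.12% of all genes tested), both lower, namely Nr1d2 and Slc10a1. None passed in the higher direction by limma or edgeR and 2 by DESeq2, and 31 (24.2%) reached an unadjusted p of 0.05, against 18.9% of all genes. In anti-Ly6G against control 12 rose (9.38%) and 31 fell (24.2%), against 15.1% and 15.3% of all genes. In KO against anti-Ly6G 19 were higher in KO (14.8%) and 14 lower (10.9%), against 13.6% and 13.1% of all genes. Whether the lists differ from all genes was not tested.

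Markers of other liver cells moved with the anti-Ly6G group. Of 10 stellate and myofibroblast markers 5 fell against control, and their summed signal was 394 to 560.2 RPM in control, 498 to 616 in KO and 296 to 446 in anti-Ly6G pools. Of 11 macrophage markers 5 fell, with sums of 467 to 851, 702 to 931 and 273 to 385 RPM. Of 4 measured neutrophil markers of 8 listed 3 fell, with sums of 12.5 to 21.4, 17.4 to 20.9 and 6.30 to 10.7 RPM. Of 9 endothelial markers 3 fell, with sums of 258 to 296, 179.7 to 307 and 214 to 246 RPM. Both measured bile duct and both measured B cell markers fell, as did the 1 measured T and NK cell marker. Of all genes, 15.3% fell in this comparison. In KO against anti-Ly6G, 7 of the macrophage, 6 of the stellate and myofibroblast and 3 of the neutrophil markers were higher in KO, against 13.6% of all genes. The measured bile duct, B cell, T and NK cell markers were also higher in KO, while of the endothelial markers 0 were higher and 1 was lower. None of these measured markers was at 0 in any pool. Of the 6 hepatocyte markers none passed in any comparison by limma, edgeR or DESeq2, and 1 reached an unadjusted p of 0.05, in KO against anti-Ly6G. In KO against control no marker of any list passed by limma. Among the stellate, macrophage and endothelial lists, 6 stellate and 4 macrophage markers were higher and 5 endothelial markers lower at an unadjusted p of 0.05, and DESeq2 called 3, 2 and 1 of these lists (edgeR 1, 0 and 0). The part of these cell types in the levels of Nr2f2, Nr4a1, Ppard, Lpl and the other genes described here was not tested.

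With the mitochondria label fitted, many of these calls no longer passed. The fit takes the label difference from the KO pools alone, so the group differences are estimated less precisely. How far lost calls reflect the label or the lower precision was not tested. With the label as a covariate, which rests on KO pools 1 and 2 against 3 and 4, 3 genes of the set still passed in anti-Ly6G against control, namely Nr1h3, Nr2c2 and Nr4a1, and 973 of all genes did, down from 3580. Of the 43 listed genes past the threshold there, 15 remained, namely Abcc3, Apoc3, Cited2, Crebbp, Cyp2b10, Dio1, Dusp1, Fabp4, Gstm1, Nrip1, Pltp, Rarg, Scd1, Sgk1 and Vnn1. With KO pools 3 and 4 alone set against the anti-Ly6G pools, all of label NZB, 6 of the 10 genes passed, namely Nr1h3, Nr1h4, Nr1i3 and Nr3c1 lower and Nr4a1 and Ppard higher in KO. With KO pools 1 and 2 alone set against control, all of label C57, none of the set passed by limma, and Ppargc1b stood at an adjusted p of 0.159.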

How the data were processed

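RNA of mouse liver in 12 pools was sequenced, and the authors deposited 1 table of normalized signal per gene. The submitters' processing notes name Bowtie2 2.0.6, RSEM 1.2.3, cutadapt 1.2.1, edgeR and, as the build, GRCm38, with roles not given. Deposited signal values divided by the worth of 1 read gave whole numbers (tolerance 0.01), so reads were recovered for the count tests. The gene names were matched to GENCODE vM21, which also gave lengths and 25-mers, and promoters came from RefSeq (GRCm38.p6). Since the table holds no counts, log2(signal + 0.5) was tested with limma-trend (limma 3.58.1, R 4.3.3), group as the only term and all 12 pools in 1 fit, with Benjamini-Hochberg adjustment over 11791 genes at 0.05. A filter asking for a group mean of 1 removed 0 genes. edgeR 4.0.16 and DESeq2 1.42.0 on the recovered reads, other pseudocounts (0.1 and 1), a mean signal of at least 5, equal totals, the compared groups only, the replicate number, the mitochondria label and each pool left out were alternatives. The code was tested on simulated data. Genes past the threshold are given in every pool, all others by group means, and each further list by its counts, its median and at most 4 examples of lowest p, beside those stated to be named after their values were seen. The genes and lists were chosen with earlier results of these data known, and the E-box was added later still. Floors and recovered depths cover counting error only, while SDs, SEs and p-values measure the spread between pools. Of the examples this rule gives, 1 is not reported here.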

Additional observations from a re-analysis of the deposited data

Results flagged for a closer look

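Of 102 sets of 4 pools (34 genes in 3 groups), 7 held a pool whose gap to the nearest other pool exceeded Dixon's 95% critical share of the set's range, and chance flags about 1 in 20. Nr1h3 measured 75.5 RPM in KO pool 2 against 81.1 to 82.2 in the other KO pools. Hnf4a measured 392 RPM in KO pool 1 against 408 to 409. Ncoa1 measured 19.3 RPM in KO pool 4 against 17.7 to 17.9, and Ncoa3 in the same pool measured 23.5 RPM against 18.6 to 19.3. In control pool 1, Nr1h4 measured 94.1 RPM against 125 to 129 in the other control pools. In that pool Nr2c1 was also low, at 12.4 RPM against 14.5 to 14.7, while Ppargc1a was high, at 35.6 RPM against 23.0 to 24.97.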

How the results depend on the processing

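For genes of the set past the threshold, 402 values were recomputed, of which 305 stayed past it, 97 did not and 0 changed sign. For the listed and overlapping genes past it, 1279 of 1500 stayed past, 221 did not and 0 changed sign. Of 2120 list counts, 208 moved by over 1.5 times. In KO against control, DESeq2 called 1 gene of the set higher, 2 lower and 577 of all genes, against 0, 1 and 132 by limma. The mitochondria label as a covariate left 79 of all genes called and 1 of the set, Nr2c2 in place of Ppargc1b, and pools matched on the label left 58 and 0. Leaving out 1 pool gave 0 to 0 higher, 0 to 2 lower and 3 to 319 of all genes. The counts of all genes were 38, 3, 47 and 319 without control pools 1 to 4, and 38, 34, 23 and 87 without KO pools 1 to 4. This count was therefore unstable: it fell below 132 without any pool but control pool 4, whose removal raised it. In anti-Ly6G against control, where limma called 4 higher and 8 lower, equal totals gave 2 higher. With edgeR 3 were higher and 7 lower, without Nr1h4 and Rxra. Fitting only the compared groups gave 2 higher and 4 lower, and the label as a covariate gave 1 higher, 2 lower and 973 of all genes. Leaving out 1 pool gave 2 to 4 higher, 3 to 9 lower and 2791 to 3646 of all genes. In KO against anti-Ly6G, with 2 higher, 8 lower and 3157 of all genes by limma, equal totals gave 4 higher and 2 lower, the label as a covariate 4 lower, and pools matched on the label 4 lower and 2041 of all genes. Leaving out 1 pool gave 2 to 3 higher, 5 to 8 lower and 2367 to 3266 of all genes. Equal totals moved the median of all genes by 0.06, -0.04 and 0.11 in the 3 comparisons, and the share of calls that were higher from 52.3% to 76.9%, from 49.6% to 39.1% and from 50.9% to 76.9%. In KO against control that share was 31.6% with the label as a covariate and 22.4% with matched pools. Pools matched on the label have fewer samples, the label as a covariate makes the group differences less precise, and the cause of the other changes was not tested. Whether pools of the same number share more than that number was not settled. Their deviations from the group mean correlated at -0.209 to 0.172 over 12 pairs (median 0.0148), and those of different numbers at -0.189 to 0.241. With the replicate block, KO against control kept 20 genes of all and 0 of the set, and it moved no other count over all genes or of the set by over 1.5 times. The planned fit with no filter equals the main one, and matching the label is not possible for anti-Ly6G against control. No gene of the set fell to the floor of 3 reads in any pool. The lowest value, 1.94 RPM, was Nr4a1 in anti-Ly6G pool 4, the library of lowest recovered depth (13.1 M). There 1 read is worth 0.0808 RPM, and the part of counting error in such low values was not tested.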
